A study of Mus musculus with 12 samples.

Results

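Matrix metalloproteases (MMPs) are zinc-dependent enzymes that cut collagens, proteoglycans and other matrix proteins, and tissue inhibitors of metalloproteases (TIMPs) block them. The transcripts of 7 MMP genes (Mmp2, Mmp3, Mmp9, Mmp10, Mmp13, Mmp14 and Mmp19) and 3 TIMP genes (Timp1, Timp2 and Timp3) were followed in cultured mouse colon myofibroblasts. These 10 genes were chosen by symbol from the array annotation, out of 11060 genes tested, with earlier results of these data known. They had 19 probes, of which 17 passed a detection p of 0.05 on 3 or more of the 12 arrays. The other 2 probes, 1 each for Mmp14 and Mmp19, were detected on 2 arrays and were not tested. Each gene kept at least 1 detected probe and was represented by its brightest one, although the Mmp19 probe was detected on only 4 of the 12 arrays, 1 in each group.

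The cells were intestinal subepithelial myofibroblasts (ISEMFs), a contractile cell type found just under the epithelium of the gut, grown as 6 lines isolated from mouse colons. The lines WT5, WT7 and WT13 were wild type, and KO4, KO10 and KO15 were null for a pair of clustered microRNAs, miR-143 and miR-145. Each line was measured without treatment and after exposure for 24 h to lipopolysaccharide (LPS) at 1 ug/mL, a bacterial surface molecule that the receptor TLR4 senses, which gave 4 groups of 3 arrays. All cells, controls included, grew in high-glucose DMEM with 10% fetal bovine serum, insulin, transferrin, an antibiotic mix and murine EGF. The strain, age and sex of the mice are not given in the labels used here. Neither is whether each line came from its own animal, so the spread between lines may in part be technical. The spread behind the p-values was pooled over the groups of a fit and drawn towards that of other genes. Leaving out a line of 1 genotype can therefore change a call in the other.

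The arrays were alike in the number of probes detected, 19223 to 20249 on each. Their unnormalised signals were not: medians were 115.5 to 119.8 on the untreated and 122.2 to 136.1 on the LPS arrays. The brightest probe read 42816 to 46783 untreated and 37087 to 39506 with LPS. The part of this in small changes of very bright or very dim probes was not tested. WT13 with LPS correlated least with its own group (mean r 0.9869, against 0.9901 to 0.995 for the other arrays). Of 16 myofibroblast markers, among them Acta2 and Tagln, 14 were detected on all 12 arrays. Of 11 epithelial markers with a probe, Krt8, Krt18, Krt19, Krt20 and Cldn7 were detected on all 12 arrays, and Epcam, Vil1 and Cldn3 on none. Of 9 endothelial markers, Esam was detected on all 12 arrays, Tek and Emcn on 11, and Pecam1, Tie1, Vwf and Cldn5 on none. None of the 7 tested epithelial markers passed with LPS in either genotype, while of 5 tested endothelial markers Emcn fell in both (-0.66 in WT and -0.60 in KO lines). Of all genes, 10.5% rose and 12.3% fell in WT lines, and 7.45% and 7.22% in KO lines. Macrophage and neutrophil markers were mixed: 8 of the 12 tested, including Lyz1, Lyz2 and Csf1r, were detected on all 12 arrays, while Ptprc, Itgam and S100a9 were detected on none. The untreated and the LPS arrays were on separate slides, so slide and LPS cannot be told apart. Position on the slide and genotype cannot be told apart either, since WT lines took positions A to C and KO lines D to F on both.

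As background, MMPs are made as inactive proenzymes and most are secreted, so transcript level is only the first step of their control. Stromal cells of the gut are a source of stromelysins, collagenase and gelatinases in inflammation, among other cell types. MMP genes that respond to cytokines typically carry a TATA box and a nearby site for AP-1, the Fos and Jun transcription factor dimer. Mmp3, Mmp10 and Mmp13 belong to a cluster of 10 Mmp genes on mouse chromosome 9. In the order of the RefSeq annotation (GRCm38.p6) the cluster runs Mmp13, Mmp12, Mmp1b, Mmp3, Mmp1a, Mmp10, Mmp8, Mmp27, Mmp20 and Mmp7.

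The 120 bases before the annotated start of the 3 cluster members are shown because these genes rose together with LPS. Sequences are RefSeq's (GRCm38.p6, plus strand, written from 5′ to 3′), from chr9:7445702-7445821 for Mmp3, chr9:7502222-7502341 for Mmp10 and chr9:7272394-7272513 for Mmp13. Capitals mark matches to the AP-1 motif TGANTCA and to the TATA motif TATAAA.
Mmp3: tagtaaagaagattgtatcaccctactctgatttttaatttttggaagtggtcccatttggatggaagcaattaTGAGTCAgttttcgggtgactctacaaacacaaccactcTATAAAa
Mmp10: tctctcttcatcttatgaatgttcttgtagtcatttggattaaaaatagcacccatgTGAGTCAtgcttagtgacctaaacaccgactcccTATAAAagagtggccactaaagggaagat
Mmp13: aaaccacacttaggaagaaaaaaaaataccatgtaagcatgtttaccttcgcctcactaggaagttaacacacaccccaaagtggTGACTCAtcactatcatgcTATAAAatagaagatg

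The AP-1 match began 46 bases before the annotated start in Mmp3, 63 in Mmp10 and 35 in Mmp13, and a TATA match followed it in each. The TATA match began 7, 29 and 16 bases before that start, in the same order. Distances are to the annotated start, which was not checked against where transcription begins in these cells. Both strands of the 300 bases from 250 before to 50 after the start were searched, and the motifs do not overlap. TGANTCA reads the same on both strands apart from its middle base. Of the 7 genes of interest with such a window, these 3 held an AP-1 match, and Mmp14, Timp1, Timp2 and Timp3 held none. Only exact matches to TGANTCA were searched, so AP-1 sites that vary from it would be missed. Mmp9, which also rose strongly with LPS, had no window and was not searched, nor were Mmp2 and Mmp19. Over all 32851 mouse windows of this length, 7.81% held the AP-1 motif and 13.62% the TATA motif. Across the chromosome 9 cluster, 8 of 10 genes held an AP-1 match. The cluster gene Mmp1a also carries one, 73 bases before its start, and differed with LPS by 0.063 log2 units in WT lines (adjusted p = 0.717) and 0.22 in KO lines (adjusted p = 0.22). A match is a description of these letters, not a measured binding site.

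LPS split the 10 genes into a strongly induced set and the rest. In WT lines 5 rose (Mmp3, Mmp13, Mmp9, Mmp10 and, by far less, Timp1), 3 fell (Timp3, Mmp14 and Mmp2), and Mmp19 and Timp2 did not pass the test. Passing means a Benjamini-Hochberg adjusted p under 0.05 over all genes tested, where 10.5% of genes rose and 12.3% fell. In KO lines 4 rose (Mmp3, Mmp13, Mmp9 and Mmp10) and 2 fell (Timp3 and Mmp14), against 7.45% and 7.22% of all genes. The median change over the 10 genes was 0.28 log2 units in WT and 0.23 in KO lines, beside -0.06 and -0.03 over all genes. Levels are normalised log2 intensities, so 1 unit is a 2-fold difference, and the fixed offset added before the log makes folds of dim probes too small. Levels of different genes come from different probes and are not compared with each other. Values are given in the line order WT5, WT7, WT13 for wild type and KO4, KO10, KO15 for null lines.

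**Figure D1:**
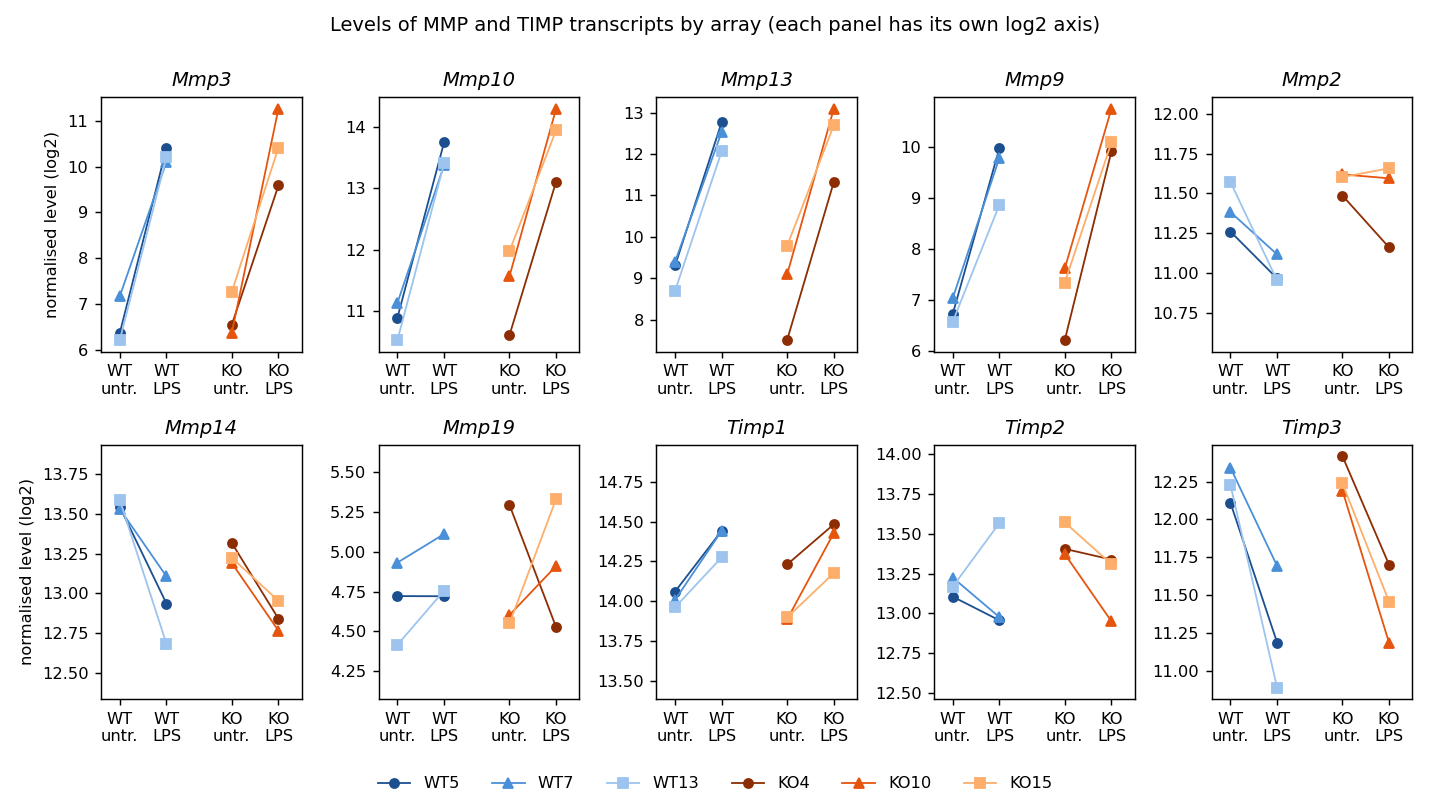
Normalised log2 level of the 10 genes on each of the 12 arrays, 1 panel per gene with its own vertical axis; lines join the untreated (untr.) and LPS array of a cell line. Mmp3, Mmp10, Mmp13 and Mmp9 rise in all 6 lines, and Mmp14 and Timp3 fall in all 6.

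Mmp3 and Mmp10 encode the stromelysins, which cut proteoglycans, laminin and fibronectin and can activate other proenzymes. Untreated, Mmp3 stood at 6.37, 7.17 and 6.22 in the WT lines and at 6.55, 6.37 and 7.27 in the KO lines. With LPS, the same lines stood at 10.40, 10.10 and 10.21 and at 9.59, 11.26 and 10.41. Every LPS array was above every untreated array, and the KO lines spread more widely with LPS than the WT lines. The change was 3.65 log2 units in WT (SE 0.37, adjusted p = 8.05e-05), a 12.6-fold rise (95% interval 7.18 to 22.0), and 3.69 in KO lines (adjusted p = 0.00012), a 12.9-fold rise (7.38 to 22.6). All 3 Mmp3 probes rose, by 3.25, 3.65 and 4.37 in WT and 3.67, 3.69 and 4.11 in KO lines.

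Mmp10 was already at 10.89, 11.13 and 10.52 in the untreated WT lines, and at 10.60, 11.56 and 11.97 in the KO lines. With LPS it stood at 13.75, 13.38 and 13.41 in the WT lines and 13.11, 14.30 and 13.95 in the KO lines. The untreated and LPS arrays did not overlap, with KO15 highest untreated and KO10 highest with LPS. The change was 2.66 in WT (SE 0.34, adjusted p = 0.000297) and 2.41 in KO lines (adjusted p = 0.000857), or 6.33-fold (95% interval 3.80 to 10.6) and 5.30-fold (3.18 to 8.83).

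Mmp13 encodes a collagenase, the main enzyme of its kind for fibrillar collagen in mice. Untreated levels were 9.31, 9.40 and 8.70 in the WT lines and 7.51, 9.09 and 9.78 in the KO lines. LPS levels were 12.78, 12.54 and 12.08 in the WT lines and 11.32, 13.09 and 12.69 in the KO lines. KO4 was the lowest line in both conditions, and its LPS level was still above every untreated level. The rise was 3.33 in WT (SE 0.53, adjusted p = 0.00123) and 3.58 in KO lines (adjusted p = 0.00107), or 10.0-fold (95% interval 4.54 to 22.2) and 11.9-fold (5.39 to 26.4).

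The Mmp13 probes did not report the same size of change. A second probe, detected on 1 of 3 untreated KO arrays, rose by 3.21 in WT and 2.99 in KO lines. The third probe, whose unnormalised signal stayed between 124 and 170, rose by 0.79 in WT (adjusted p = 0.00339) and differed by 0.37 in KO lines (adjusted p = 0.129), both adjusted over all 21124 detected probes. The array medians of the unnormalised signal were 115.5 to 136.1, so this probe was close to the middle of a table in which most probes were not detected.

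**Figure D2:**
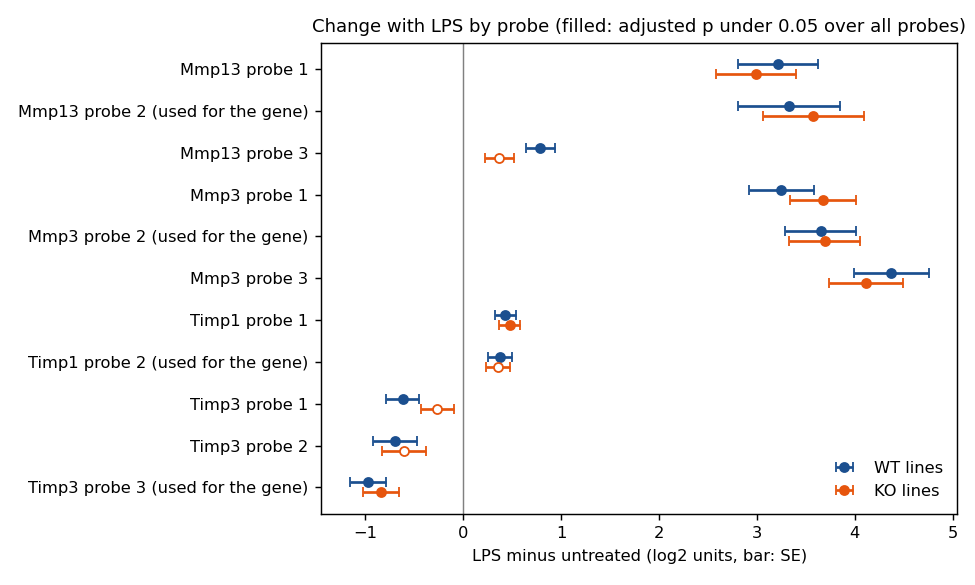
Change with LPS for each detected probe of the 4 genes with more than 1 such probe, as LPS minus untreated log2 level (points) with its SE (bars), for WT and KO lines; filled points have an adjusted p under 0.05 over all detected probes. The 3 Mmp3 probes lie between 3.25 and 4.37, while 1 Mmp13 probe lies at 0.79 and 0.37 beside 2 that lie between 2.99 and 3.58.

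The gelatinases Mmp9 and Mmp2, which cut denatured collagen and basement membrane collagen, went different ways. Mmp9 stood at 6.73, 7.04 and 6.58 in the untreated WT lines and at 6.22, 7.62 and 7.34 in the KO lines. With LPS it stood at 9.97, 9.78 and 8.87 and at 9.91, 10.74 and 10.08. Again no LPS array overlapped the untreated arrays, and WT13 was the lowest LPS array. The rise was 2.76 in WT (SE 0.36, adjusted p = 0.000365) and 3.18 in KO lines (adjusted p = 0.000222), or 6.75-fold (95% interval 3.92 to 11.6) and 9.06-fold (5.25 to 15.6).

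Mmp2 stood at 11.26, 11.38 and 11.57 in the untreated WT lines and at 10.97, 11.12 and 10.95 in the same lines with LPS. The KO lines stood at 11.49, 11.62 and 11.60 untreated and at 11.16, 11.59 and 11.66 with LPS. The WT groups did not overlap, while KO10 and KO15 moved by -0.02 and 0.05. Mmp2 fell by 0.39 in WT (SE 0.13, adjusted p = 0.0497), and the KO difference was -0.10 (adjusted p = 0.675). The WT call sat at the threshold and was lost without any 1 of the lines WT5, WT7, WT13, KO10 and KO15 (adjusted p 0.0628 to 0.289).

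Mmp14, a membrane-anchored metalloprotease that activates the Mmp2 proenzyme at the cell surface, fell in both genotypes. It stood at 13.55, 13.53 and 13.59 in the untreated WT lines and at 12.94, 13.11 and 12.68 with LPS. In the KO lines it went from 13.32, 13.19 and 13.22 to 12.84, 12.77 and 12.95. All LPS arrays were below all untreated arrays. The fall was -0.65 in WT (SE 0.11, adjusted p = 0.00176), 1.56-fold (95% interval 1.33 to 1.84), and -0.39 in KO lines (adjusted p = 0.0319), 1.31-fold (1.11 to 1.54). The KO call was lost without KO4 (adjusted p = 0.18), KO10 (0.19), KO15 (0.0934) or WT5 (0.0616).

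Mmp19, a secreted metalloprotease that cuts basement membrane proteins, stayed near the detection limit. It stood at 4.72, 4.93 and 4.42 in the untreated WT lines and at 5.29, 4.60 and 4.55 in the KO lines. With LPS it stood at 4.72, 5.11 and 4.76 and at 4.53, 4.91 and 5.33. The groups overlapped throughout, and neither the WT difference of 0.17 (adjusted p = 0.62) nor the KO difference of 0.11 (adjusted p = 0.81) passed.

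Among the inhibitors, Timp3 fell in both genotypes, Timp1 rose in WT lines and Timp2 did not pass in either. Timp3, the inhibitor that binds to matrix and also blocks ADAM family proteases, stood at 12.11, 12.34 and 12.23 in the untreated WT lines and at 12.42, 12.19 and 12.24 in the KO lines. With LPS it stood at 11.19, 11.69 and 10.89 and at 11.70, 11.18 and 11.46. Every LPS array was below every untreated array. The fall was -0.97 in WT (SE 0.18, adjusted p = 0.00337), 1.96-fold (95% interval 1.49 to 2.58), and -0.84 in KO lines (adjusted p = 0.0106), 1.78-fold (1.35 to 2.35). The KO call was lost without KO10 (adjusted p = 0.0886) or KO15 (0.0699). All 3 Timp3 probes fell in WT lines, by -0.61, -0.69 and -0.97, and in KO lines the dimmer probes, at -0.26 (adjusted p = 0.354) and -0.60 (adjusted p = 0.1), did not pass over all probes. The probe at -0.61 in WT and -0.26 in KO lines had unnormalised signals of 142 to 161, not far above the array medians of 115.5 to 136.1.

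Some myofibroblast markers were also lower with LPS. Of the 16, 6 fell in WT lines (Tagln, Myh11, Myl9, Vim, Cnn1 and Col1a1) and 1 rose (Pdgfra, by 0.68). Over all genes 12.3% fell and 10.5% rose. In KO lines 4 fell (Tagln, Myh11, Myl9 and Vim) and none rose, against 7.22% and 7.45% of all genes. Cnn1 was detected on only 5 of the 12 arrays. Dcn was higher without passing, by 0.73 in WT (adjusted p = 0.0607) and 0.58 in KO lines (adjusted p = 0.159). So was Pdgfra in KO lines, by 0.42 (adjusted p = 0.132). Myh11, the smooth muscle myosin gene, fell by 1.28 in WT and 1.50 in KO lines, and Tagln by 0.61 and 0.83, while Acta2 differed by -0.02 and 0.00. The summed linear level of the 16 markers was 103762 to 104327 in untreated WT lines and 85513 to 93786 with LPS. In KO lines it was 99015 to 102756 untreated and 87542 to 92871 with LPS. Their part in the lower levels of Mmp14, Timp3 and Mmp2 was not tested.

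Timp1, a soluble inhibitor of most secreted MMPs, stood at 14.06, 14.01 and 13.96 in the untreated WT lines and at 14.44, 14.44 and 14.28 with LPS. The KO lines went from 14.23, 13.89 and 13.90 to 14.48, 14.43 and 14.18. The WT groups did not overlap, and the KO groups did, since KO4 untreated was above KO15 with LPS. The rise was 0.38 in WT (SE 0.12, adjusted p = 0.0363), 1.30-fold, and the KO difference was 0.36 (adjusted p = 0.0606). With the line as a block the KO difference passed (adjusted p = 0.0325 with a fixed and 0.0284 with a random block), and so did the other Timp1 probe over all probes (0.48, adjusted p = 0.011). The WT call was lost without WT5 (adjusted p = 0.137), WT7 (0.134), WT13 (0.0994) or KO10 (0.0562). Unnormalised Timp1 signals were 13882 to 23557 where the brightest probe of each array read 37087 to 46783.

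Timp2, which inhibits MMPs and also helps Mmp14 to bind the Mmp2 proenzyme, stood at 13.10, 13.22 and 13.17 in the untreated WT lines and at 12.96, 12.98 and 13.57 with LPS. The KO lines went from 13.41, 13.37 and 13.57 to 13.34, 12.95 and 13.31. WT13 moved up while the other 5 lines moved down. The difference was 0.00057 in WT (adjusted p = 0.998, 95% interval -0.34 to 0.35) and -0.25 in KO lines (adjusted p = 0.334, -0.60 to 0.09).

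Taking each line as its own comparison, Mmp3, Mmp9, Mmp10, Mmp13 and Timp1 were higher with LPS in 6 of 6 lines, and Mmp14 and Timp3 were lower in 6 of 6. The smallest change of the 4 induced MMP genes in any line was 1.98 (Mmp10 in KO15), and the largest change of Timp1 was 0.54 (KO10). Mmp2 and Timp2 were lower in 5 of 6 lines, and Mmp19 was higher in 4. Such counts of lines were not made over all genes.

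**Figure D3:**
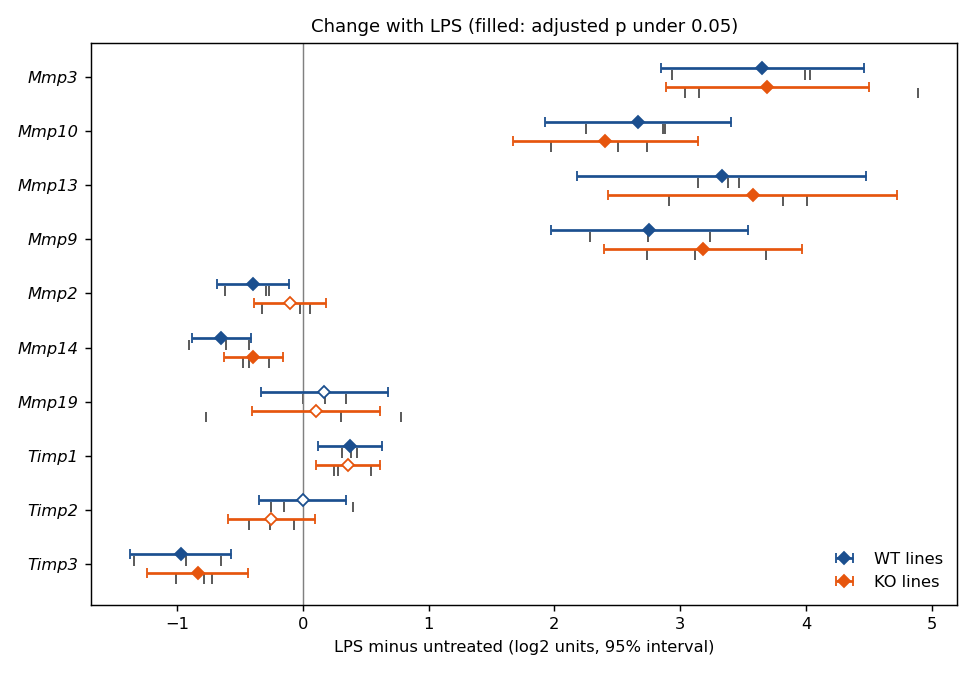
Change with LPS of the 10 genes as LPS minus untreated log2 level, with 95% intervals, for WT and KO lines; ticks below each bar mark the individual lines and filled points have an adjusted p under 0.05. Mmp3, Mmp10, Mmp13 and Mmp9 lie between 2.41 and 3.69, and the other genes lie between -0.97 and 0.38.

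Whether the response to LPS depended on miR-143/miR-145 was tested as the KO change minus the WT change. None of the 10 genes passed (adjusted p 0.949 to 0.999), and over all 11060 genes the share called was 0% by limma, with 392 genes at an unadjusted p under 0.05 and 1 gene called with the line as a random block. The intervals below come from the fit of group means, which did not use the pairing of a line's untreated and LPS arrays. They show what that fit can resolve, not the limit of the design. Intervals that use the pairing are not given here. For Mmp14 the difference was 0.25 (95% interval -0.08 to 0.59) and for Timp1 -0.02 (-0.38 to 0.34). For the induced genes the intervals were wide: Mmp3 at 0.04 (-1.10 to 1.18), Mmp10 at -0.26 (-1.30 to 0.79), Mmp13 at 0.25 (-1.37 to 1.87) and Mmp9 at 0.42 (-0.69 to 1.54). The remaining genes were at 0.29 for Mmp2 (-0.11 to 0.70), 0.14 for Timp3 (-0.43 to 0.70), -0.25 for Timp2 (-0.74 to 0.24) and -0.07 for Mmp19 (-0.78 to 0.65).

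Genotype alone gave no call among the 10 genes in any of 3 comparisons. The shares of all genes called were 0.181% untreated, 0.325% with LPS and 0.127% on the means of a line's untreated and LPS arrays. For Mmp14 the untreated KO lines differed from WT by -0.31 (unadjusted p = 0.0141, adjusted p = 0.35), and the 3 WT lines (13.53 to 13.59) and 3 KO lines (13.19 to 13.32) did not overlap. On line means Mmp14 differed by -0.18 (unadjusted p = 0.0542, adjusted p = 0.493), without overlap too. For Mmp2 the difference was 0.46 with LPS (unadjusted p = 0.00447, adjusted p = 0.235), again without overlap, and 0.31 on line means, also without overlap (unadjusted p = 0.0159, adjusted p = 0.339). For Timp2 it was 0.28 untreated, without overlap (adjusted p = 0.671). An exact permutation test of 3 lines against 3 cannot go below 0.1, so lack of overlap is the most that single genes can show in such a test. A random order of the lines gives no overlap in a share of 0.1. Lack of overlap was not counted over all genes, so it is not read as a genotype difference.

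In the other comparisons of genotype the WT and KO lines overlapped. Untreated, Mmp10 differed by 0.53 (95% interval -0.21 to 1.27), Mmp13 by -0.34 (-1.49 to 0.80), Mmp9 by 0.28 (-0.51 to 1.06) and Mmp3 by 0.14 (-0.66 to 0.95). With LPS, Mmp9 differed by 0.70 (-0.08 to 1.49), Mmp10 by 0.27 (-0.46 to 1.01), Mmp3 by 0.18 (-0.62 to 0.99) and Mmp13 by -0.09 (-1.24 to 1.05). Timp1 and Timp3 differed by at most 0.19, and Mmp19 by at most 0.13, in either condition. Mmp2 differed by 0.16 untreated, and Mmp14 by -0.06 and Timp2 by 0.03 with LPS.

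**Figure D4:**
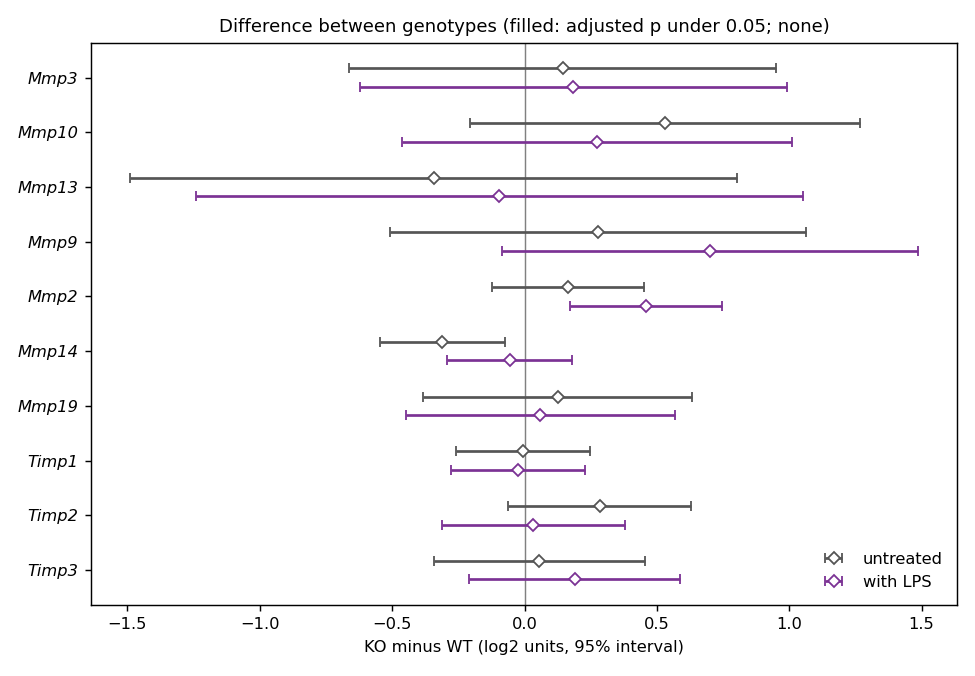
Difference between genotypes of the 10 genes as KO minus WT log2 level, with 95% intervals, untreated and with LPS; no point is filled because none has an adjusted p under 0.05. The intervals of Mmp13 reach from -1.49 to 1.05, and those of Mmp14 untreated and Mmp2 with LPS leave out 0 before adjustment.

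Lines of one genotype also differed from each other. With LPS, KO10 was the highest line for Mmp3, Mmp10, Mmp13 and Mmp9, and KO4 was the lowest for Mmp3, Mmp10 and Mmp13, with WT13 lowest for Mmp9. Between the highest and lowest of the 6 lines with LPS lay 1.67 log2 units for Mmp3, 1.19 for Mmp10, 1.77 for Mmp13 and 1.87 for Mmp9. The same span was 0.42 for Mmp14 and 0.31 for Timp1.

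Leukocyte marker levels were ordered in part like these lines. The summed linear level of the 12 tested macrophage and neutrophil markers was 10363, 7164 and 7842 in the untreated WT lines and 3064, 12987 and 6345 in the KO lines. With LPS it was 8090, 6032 and 6555 and 2970, 10244 and 5587, so KO4 was lowest and KO10 highest in both conditions. Untreated, KO15 was the highest line for Mmp3, Mmp10 and Mmp13, and KO10 for Mmp9. WT13 was the lowest untreated line for Mmp3 and Mmp10, and KO4 for Mmp13 and Mmp9. The marker sum of KO15 was below that of every WT line in both conditions. Lyz1 and Lyz2 made up 57.7% to 86.7% of the sum. The sum was lower with LPS in 6 of 6 lines, but none of the 12 markers passed as lower in either genotype, and 3, Adgre1, Cd14 and S100a8, rose in each. Of all genes, 10.5% rose and 12.3% fell in WT lines, and 7.45% and 7.22% in KO lines. The markers' part in the MMP levels was not tested, and in such bulk RNA fewer cells of a type and less RNA per cell cannot be told apart. Mmp12, the macrophage elastase gene of the chromosome 9 cluster, was lowest in KO4 and highest in KO10 as well, at 4.67 and 6.97 untreated and 6.03 and 8.08 with LPS. Its differences with LPS, 1.04 in WT (adjusted p = 0.179) and 1.18 in KO lines (adjusted p = 0.172), did not pass.

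**Figure D5:**
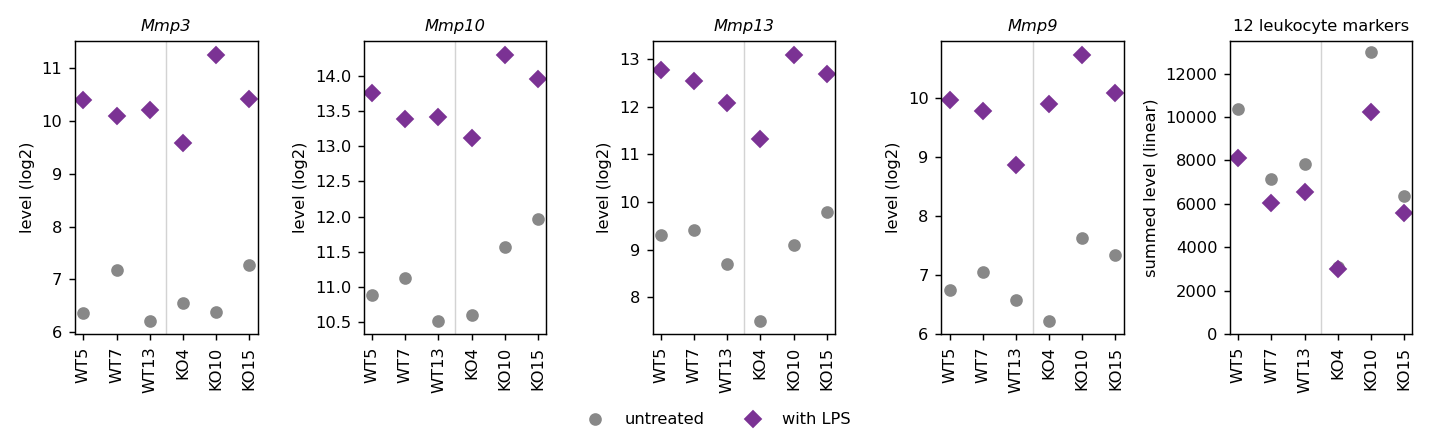
Log2 levels of the 4 induced MMP genes and the summed linear level of 12 macrophage and neutrophil markers in each of the 6 lines, untreated (circles) and with LPS (diamonds). With LPS, KO10 is highest in all 5 panels, and KO4 is lowest for Mmp3, Mmp10, Mmp13 and the marker sum.

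Of 17 other MMP and TIMP genes 8 could be tested, and none of these rose with LPS. In WT lines 3 fell: the membrane-type metalloprotease genes Mmp17 (-1.28, adjusted p = 0.00766) and Mmp16 (-0.41), and Mmp23 (-0.59). In KO lines these 3 fell again (-0.98, -0.34 and -0.54), as did the stromelysin gene Mmp11 (-0.55). The list's median change was -0.20 in both genotypes. Over all genes 10.5% rose and 12.3% fell in WT lines, and 7.45% and 7.22% in KO lines. Mmp16 was also the 1 gene of all lists called between genotypes, 0.51 higher in KO lines with LPS (adjusted p = 0.0441), at 7.53, 7.68 and 7.61 against 7.06, 7.12 and 7.10. Of all genes 0.325% were called there. Mmp16 did not pass untreated (0.45, adjusted p = 0.0884) or on line means (0.48, adjusted p = 0.0761). Results of the processing alternatives are not given for this gene. In the chromosome 9 cluster, Mmp1b, Mmp8, Mmp20 and Mmp7 were detected on 0 arrays.

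Among 4 tested genes of plasminogen activation, the protease system that can activate MMP proenzymes, Serpinb2, an inhibitor of urokinase, rose by 2.53 in WT (adjusted p = 0.000219) and 2.43 in KO lines. Plat, the tissue plasminogen activator gene, fell by -0.63 and -0.54. Plau and Plaur, urokinase and its receptor, did not pass with LPS in either genotype. Of 13 ADAM and ADAMTS genes, a related family that includes sheddases and proteoglycan-cutting enzymes, 3 rose and 1 fell in WT and 1 rose and 2 fell in KO lines. Beside these counts, 10.5% of all genes rose and 12.3% fell in WT lines, and 7.45% and 7.22% in KO lines. Adamts7 rose in both (0.94 and 1.24), Adamts12 fell in both (-0.62 and -0.58), Adam9 (0.74) and the aggrecanase gene Adamts4 (0.59) rose in WT and Adamts1 fell in KO lines (-0.55). Of 9 other regulators of matrix proteolysis, the lysosomal protease gene Ctsb rose in WT (0.47). Reck, which encodes a membrane-anchored MMP inhibitor, was at -0.25 in WT (adjusted p = 0.0798) and -0.19 in KO lines.

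Of 16 tested cytokines and transcription factors known to induce MMP genes, 7 rose in WT and 9 in KO lines and none fell. Over all genes 10.5% rose and 12.3% fell in WT lines, and 7.45% and 7.22% in KO lines. The list's median changes were 0.42 and 0.58. It was chosen with earlier results known, and its part in the MMP levels was not tested. Only genes that passed are named here. The list they come from also holds Fos and Jun family genes, whose changes are not given. Il1b was detected on no untreated array and was at least 39.5-fold higher with LPS in WT (adjusted p = 2.35e-05) and at least 28.5-fold in KO lines (adjusted p = 3.77e-05). Tnf, likewise detected on no untreated array, was at least 2.20-fold higher in WT (adjusted p = 0.00212) and at least 1.59-fold in KO lines (adjusted p = 0.0206). Those bounds set the LPS mean against the lowest detected signal of the untreated arrays. Il1a, detected on 1 WT and 2 KO arrays without LPS, rose by 4.24 and 3.56. Il6 rose by 2.82 and 2.88, the factor gene Cebpb by 1.07 and 1.09, and Ets2 by 0.96 in WT and 1.07 in KO lines.

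Across the 12 arrays, the genes whose levels ran most like the induced MMP genes differed from member to member. These are Pearson correlations over arrays that share 6 lines and the LPS contrast, and they are given as a description. For Mmp3 the nearest were Gch1 (r = 0.990), a tetrahydrobiopterin synthesis gene, Wdr92 and Il6 (0.989). For Mmp10 they were Dnmt3l (0.996), the siderophore-binding Lcn2 (0.991) and the chemokine gene Cxcl16 (0.988). For Mmp13 they were Rasl12 (0.985), Ets2 (0.984) and Plscr1, and for Mmp9 Bdkrb1 (0.987), a bradykinin receptor gene, Selenok and Upp1. Each of these 4 genes had between 263 and 348 genes at r over 0.9.

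The other called genes had other neighbours. Mmp14 ran nearest to Anxa3 (0.982), Ppp1r3d and Anapc2, and Timp3 to Parva (0.988), Pitpna and Egr2. Timp1 had 6 genes at r over 0.9, led by Gsdmd (0.938), and Mmp2 had 2, led by Trp53inp2 (0.903).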

How the data were processed

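Biotinylated cRNA of 12 cultures was hybridised to Illumina mouse bead arrays, per the labels' protocols. The deposited intensity values are linear bead signals that had not been normalised, each with a detection p-value, per the file headers. The authors also deposited processed intensity values, which are linear, with medians of 122.4 to 122.5. Sorted, they differed between arrays by at most 1.12% at any rank, as quantile normalisation leaves them. The submitters' processing notes name BeadStudio, with no version or settings given in the labels. The number of columns left unused was 0. Of all probes 34885 had 1 gene symbol in the platform annotation, 18 several and 10378 none.

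Signals were normalised with neqc (limma 3.58.1, R 4.3.3): background correction through the detection p-values, an offset of 16, quantile normalisation and log2. Probes detected on 3 or more arrays were kept (21124, of which 17886 had 1 symbol), and the brightest stood for its gene. There were 6 comparisons, tested two-sided with lmFit and eBayes and Benjamini-Hochberg adjustment over 11060 genes: 5 from 1 fit of 4 group means, and 1 on the 6 line means. Where a group's arrays all failed to detect a gene, its level there was taken, per array, as its own signal or the lowest detected one, whichever was higher, and the fold is a bound. Precision is limited by the number of arrays. The labels pair the untreated and LPS array of a line. Deviations from the group means correlated within a line at 0.137 to 0.52 over genes, and 6 of 6 lines matched themselves best. The motif search used RefSeq promoter windows, and 7 of the 10 genes matched one by symbol. All 10 genes are named, and up to 6 called genes of smallest p per comparison from each of 5 lists. Markers are named from their own lists, and similar genes by their rank. Mmp1a, Mmp1b, Mmp7, Mmp8, Mmp12, Mmp20, Mmp27, Plau, Plaur and Reck fall outside that rule and were named after their values were seen. The 10 genes and the lists were chosen with earlier results of these data known. The fits were run on simulated data with changes placed in the WT LPS group only. There the arrays of a line were drawn independently, unlike the arrays here. Changes as small as those of Timp1 and Mmp2 were not simulated. Probes for the deleted microRNAs were not analysed here, so the knockout was not checked.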

Additional observations from a re-analysis of the deposited data

How the results depend on the processing

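Alternatives were the authors' processed values, scaling to the 75th percentile, no background correction, a neqc offset of 50, no detection filter, detection on all 12 arrays, the mean of a gene's probes, every probe tested apart, only the arrays compared, the line as a fixed or random block, and leaving out each line. Of the 10 genes, 8 were called with LPS in WT lines (6 to 8 over the alternatives) and 6 in KO lines (4 to 7), and 0 in the other 4 comparisons under each alternative. Mmp3, Mmp9, Mmp10 and Mmp13 kept their calls in both genotypes, and Mmp14 and Timp3 in WT lines, in all 17. Beside the losses given with the results, Mmp2 in WT also missed with no detection filter (adjusted p = 0.0672), every probe apart (0.0552) and only the arrays compared (0.0589), and Timp1 in WT with 75th percentile scaling (0.0666). The line blocks changed 1 other call, Timp1 in KO lines, which also passed with processed values and with no background correction (both 0.0331), the offset of 50 (0.0386), detection on all arrays (0.0492) and the mean of probes (0.0158).

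Differences that changed sign were called in neither setting, and the causes were not tested. With 75th percentile scaling, Timp2 was at -0.077 in WT with LPS and at -0.00827 between genotypes with LPS, and Mmp19 at 0.021 for the difference of LPS changes. With the mean of probes, that difference was -0.13 for Mmp13 and 0.012 for Timp1, and Timp3 untreated was at -0.041 between genotypes. Leaving out 1 line gave ranges across 0. For LPS these were -0.20 to 0.13 (Timp2, WT), -0.18 to 0.015 (Mmp2, KO) and -0.23 to 0.55 (Mmp19, KO). For the difference of changes they were -0.56 to 0.37 (Mmp3), -0.40 to 0.37 (Mmp19), -0.11 to 0.033 (Timp1) and -0.049 to 0.30 (Timp3). Between untreated genotypes they were -0.12 to 0.44 (Mmp3), -0.00216 to 0.70 (Mmp9), -0.84 to 0.30 (Mmp13), -0.11 to 0.26 (Mmp19), -0.12 to 0.054 (Timp1) and -0.013 to 0.11 (Timp3). With LPS they were -0.24 to 0.60 (Mmp3), -0.46 to 0.43 (Mmp13), -0.17 to 0.044 (Mmp14), -0.14 to 0.26 (Mmp19), -0.086 to 0.068 (Timp1) and -0.073 to 0.23 (Timp2). On line means they were -0.55 to 0.36 (Mmp13), -0.00221 to 0.22 (Mmp19) and -0.10 to 0.058 (Timp1).

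Counts over all genes moved more. With LPS, 2526 genes were called in WT and 1622 in KO lines, and 4375 and 2634 with every probe apart, 1328 without WT5 and 1097 without WT13 (WT), and 925, 545 and 686 without KO4, KO10 and KO15 (KO). The difference of changes had 0 calls, and 1 without WT7. Between genotypes the count was 20 untreated (3 to 38 genes over the other settings), 36 with LPS (5 to 43) and 14 on line means (3 to 49).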
